A study of Mus musculus with 2 samples.

Results

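The 7 genes described here act on the endothelial surface of a vessel or next to it, in blood coagulation and in the breakdown of clots: Vwf, Thbd, Procr, Tfpi, F3, Plat and Plau. They were chosen by name and matched by Ensembl identifier, and 7 of 7 were listed for both libraries, which list 32285 and 27998 genes and share 27040 of them. Cells came from reporter mice aged 1 to 3 months and from their stria vascularis (SV), the epithelium with its own capillaries that lines the outer wall of the cochlear duct. One library was made from 20 cochleae of 10 Tie2-GFP mice, whose GFP is driven by the Tek promoter, Tek being an angiopoietin receptor of endothelial cells. The other was made from 20 cochleae of 10 NG2-DsRed mice, whose DsRed is driven by the promoter of Cspg4, a proteoglycan gene of pericytes and of other cells. Cells were sorted on the reporter where enrichment was needed. Each line was pooled and processed as a batch of its own, so that reporter, batch and counting software cannot be told apart. No cell received any treatment, and neither line carries a deletion.

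Expression was measured as unique molecular identifiers (UMIs), each standing for 1 captured transcript molecule, per gene and cell barcode. Barcodes were placed in 3 classes by genes other than the 7. An endothelial barcode had a UMI of at least 4 of the 6 genes Pecam1, Cdh5, Cldn5, Flt1, Egfl7 and Ramp2. A mural barcode, the class of pericytes and smooth muscle cells, had at least 3 of the 4 genes Pdgfrb, Rgs5, Vtn and Notch3 and at most 1 of the endothelial genes. An intermediate barcode, named for the pigmented intermediate cells of the SV, had all 3 of Dct, Tyr and Kcnj10. The Tie2-GFP library held 379 endothelial, 4 mural and 87 intermediate barcodes among 633, and the NG2-DsRed library held 58, 97 and 23 among 201. The remaining barcodes belonged to no class, apart from 2 of the NG2-DsRed library that met 2 rules and were left out.

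The classes carried their own markers and little of each other's, with exceptions that bear on the results. The marker lists include the genes of the class rules, so their sums were in large part fixed by those rules. In the Tie2-GFP library the 10 endothelial markers summed to 8347 counts per 1000000 UMIs (CPM) in endothelial barcodes and to 18.3 CPM in intermediate barcodes, and the 6 intermediate markers summed to 28.5 and 34071 CPM. Outside the rules, Tek, Kdr, Esam and Emcn stood at 276, 300, 466 and 644 CPM in endothelial barcodes. In intermediate barcodes none of these exceeded 1.52 CPM. Mlana and Mitf stood at 1069 and 708 CPM in intermediate barcodes. Pmel had 1 UMI there (0.761 CPM), against 1.16 CPM in endothelial barcodes. In the NG2-DsRed library the 10 endothelial markers summed to 8198 CPM in endothelial and 638 CPM in mural barcodes, where Flt1, Tek and Kdr were at 0. The 10 mural markers reached 6100 CPM in the endothelial barcodes of that library, against 1066 CPM in those of the Tie2-GFP library and 26656 CPM in mural barcodes, and 32 of its 58 endothelial barcodes had a UMI of 3 or 4 of the mural genes. Intermediate barcodes of the Tie2-GFP library had a median of 9.31% mitochondrial UMIs, and 6 of 87 lay within the limits of the study's methods, against 1.82% and 368 of 379 for endothelial barcodes. A list of 10 immediate-early and heat shock genes, which respond to dissociation, summed to 27050 CPM in endothelial and 2992 CPM in intermediate barcodes, and their part in the results was not tested. No barcode sequence occurred in both libraries. There was 1 library per line, so no test between conditions was possible. All intervals are at 95% and cover counting error only. Those of levels are exact Poisson, those of shares Clopper-Pearson, and those of ratios come from the exact binomial distribution of 1 count given the sum. Folds are ratios of the CPM levels, whereas log2 ratios add 0.5 counts to each class and so differ from the log2 of the fold where counts are few. Against a class at 0, "at least" sets 3 counts for the 0 and takes the other count as measured, so the exact lower limit, which also covers that count's error, is lower.

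Coagulation starts when tissue factor, a membrane protein kept outside the vessel lumen, meets factor VII in blood, and it ends in thrombin and fibrin. The endothelium holds it back with tissue factor pathway inhibitor and with thrombomodulin and the endothelial protein C receptor, which together turn thrombin into an activator of protein C. Von Willebrand factor, stored in endothelial granules, tethers platelets to an injured wall, and tissue-type and urokinase-type plasminogen activators make plasmin, which dissolves fibrin. Cells around brain vessels are known for high tissue factor, an arrangement described as a haemostatic envelope.

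In the GENCODE M21 annotation of GRCm38, Vwf lies on chromosome 6 at 125546774 to 125686679 (plus strand, 52 exons in its longest set) and Thbd, a gene of 1 exon, on chromosome 2 at 148404466 to 148408188 (minus strand). Procr lies on chromosome 2 at 155751117 to 155755471 (plus strand, 4 exons) and Tfpi on chromosome 2 at 84432855 to 84476775 (minus strand, 10 exons). F3 lies on chromosome 3 at 121723537 to 121735048 (plus strand, 6 exons), Plat on chromosome 8 at 22757727 to 22782844 (plus strand, 14 exons) and Plau on chromosome 14 at 20836660 to 20843385 (plus strand, 11 exons). None of the 7 overlapped another gene of this annotation. Whether the UMIs of either library were counted with the same annotation was not checked.

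Promoter sequences from RefSeq, on build GRCm38.p6 and running from 250 bases before to 50 after a start site, were found for Procr, Tfpi and F3. Those of F3 and Procr are shown because their genes had opposite patterns: of the 3 classes F3 was read almost wholly in intermediate barcodes, where Procr was at 0. The F3 window is chr3:121723287-121723586 (plus strand) and the Procr window chr2:155750967-155751266 (plus strand), both 5′ to 3′. Capitals mark matches on either strand to the Sp1 box GGGCGG, to the box CACCC known from Krüppel-like factors, and to the AP-1 element TGACTCA, and a match on the minus strand appears as its reverse complement. Matches were also sought, and not found in either window, to the Ets core CCGGAA, to the E-box CACGTG, to a further E-box written CATGTG as the core bound by the pigment cell factor Mitf, and to the GATA element AGATAA.
F3: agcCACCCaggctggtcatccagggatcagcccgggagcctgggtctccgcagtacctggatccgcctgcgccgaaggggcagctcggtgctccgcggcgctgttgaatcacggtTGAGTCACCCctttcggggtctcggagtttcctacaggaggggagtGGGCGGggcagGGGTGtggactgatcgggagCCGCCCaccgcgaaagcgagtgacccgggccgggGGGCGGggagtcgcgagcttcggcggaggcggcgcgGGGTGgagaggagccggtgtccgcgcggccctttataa
Procr: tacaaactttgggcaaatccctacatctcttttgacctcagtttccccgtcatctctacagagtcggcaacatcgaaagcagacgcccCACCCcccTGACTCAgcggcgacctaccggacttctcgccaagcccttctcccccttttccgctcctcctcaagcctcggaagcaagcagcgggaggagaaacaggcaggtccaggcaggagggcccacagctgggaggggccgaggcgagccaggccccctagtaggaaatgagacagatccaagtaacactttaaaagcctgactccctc

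The F3 window had 70.3% G and C, against 58.3% for Procr and a median of 52.7% over 32851 promoters. It held 3 GGGCGG and 4 CACCC matches, and its TGACTCA match, on the minus strand, overlapped one of the CACCC matches. The Procr window held 1 CACCC and 1 TGACTCA match. Of all promoters 35.7% held GGGCGG, 57.5% held CACCC and 5.20% held TGACTCA. The 2 Tfpi windows, at chr2:84476710-84477009 and chr2:84474125-84474424 on the minus strand, each held 1 GGGCGG and 1 CACCC match, and the first also held 1 CACGTG and the second 1 AGATAA match. CACGTG occurred in 7.15% and AGATAA in 11.2% of all promoters. These are letters in a window and say nothing about which factor binds there.

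Set against intermediate barcodes, Vwf, Thbd, Procr and Plat were endothelial and F3 was the reverse. Set against mural barcodes, only Vwf was over 4-fold higher in endothelial ones, while the Procr interval held 0, Thbd depended on which endothelial barcodes were used, and Plat was higher in mural barcodes. Tfpi was read at low levels in both vascular classes, and Plau had few UMIs in any. The plot of levels by class shows these patterns.

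**Figure D1:**
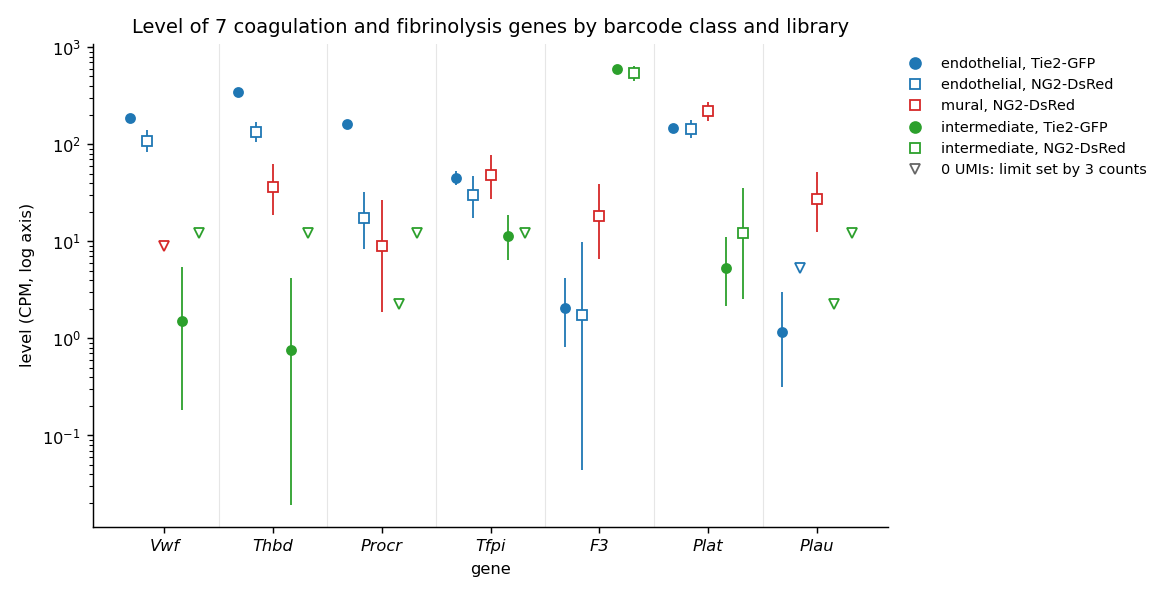
Level of each gene in CPM (log axis) in endothelial, mural and intermediate barcodes of the Tie2-GFP (filled) and NG2-DsRed (open) libraries. Points are CPM of summed UMIs, bars are 95% Poisson intervals, and triangles mark 0 UMIs at the limit set by 3 counts. F3 stands at 599 and 539 CPM in intermediate barcodes and at 2.04 and 1.75 CPM in endothelial barcodes, the reverse of Vwf, Thbd and Procr.

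Within the Tie2-GFP library, 6 of the 7 genes had at least 10 UMIs over endothelial and intermediate barcodes. Of these, 4 (Vwf, Thbd, Procr and Plat) were at least 4-fold higher in endothelial barcodes, 1 (F3) was at least 4-fold lower, and Tfpi lay just within the limit. Among all 11352 genes that passed the same minimum, 15.8% were 4-fold higher and 9.37% 4-fold lower. The median log2 ratio of the 6 genes was 5.64, or 5.41 with Procr set at its bound, against 0.14 over all genes. A gene that reached 10 UMIs only through its high class had to differ, so these counts describe the 6 genes and add no support. Plau had 4 UMIs in all in this comparison.

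Vwf encodes the multimeric platelet tether of endothelial cells. In the Tie2-GFP library it gave 638 UMIs in endothelial barcodes, a level of 186 CPM (172 to 201), and was found in 203 of 379 of them (53.6%). In intermediate barcodes it gave 2 UMIs in 87 barcodes (1.52 CPM), so that the endothelial level was 122-fold higher, a log2 ratio of 6.61 (5.07 to 9.98). The level varied widely among endothelial barcodes, from 0 through a median of 91.0 to 2112 CPM, and the tenth of barcodes with the most Vwf UMIs held 45.9% of them. When every barcode was thinned to 2000 UMIs, which leaves out 17 shallower endothelial and 2 intermediate barcodes, the expected share with Vwf was 26.5% in endothelial and 0.648% in intermediate barcodes.

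In the NG2-DsRed library Vwf was read in endothelial barcodes and not in the other classes. It gave 62 UMIs, 109 CPM (83.3 to 139), in 21 of 58 barcodes. It was at 0 in 97 mural barcodes, where the limit of 3 counts allows a UMI in up to 3.09% of barcodes (3.73% by Clopper-Pearson) and a level of up to 9.03 CPM, and at 0 in 23 intermediate barcodes. The endothelial level was above the mural level by a log2 ratio of at least 3.58 (exact lower limit 3.25), and at least 8.87-fold above the intermediate one (exact lower limit of the log2 ratio 2.81). The 5 platelet markers summed to 6.70 CPM in endothelial barcodes of the Tie2-GFP library and to 8.76 CPM in those of the NG2-DsRed library. These sums rest on 23 and 5 UMIs, with Gp1ba at 0. They were 8.97 CPM in barcodes with a Vwf UMI and 3.04 CPM in those without in the Tie2-GFP library. In the NG2-DsRed library they were 14.5 and 3.39 CPM. The part of platelet RNA in the Vwf level was not tested.

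Thbd encodes thrombomodulin, the receptor that diverts thrombin to protein C. Its 1187 UMIs in endothelial barcodes of the Tie2-GFP library came to 346 CPM (326 to 366) and were spread over 257 of 379 barcodes (67.8%, or 39.4% at 2000 UMIs). The median endothelial barcode had 198 CPM and the highest 4032. A single UMI was found in intermediate barcodes (0.761 CPM), which gives a log2 ratio of 8.24 (6.35 to 14.13), or 6.29 within the limits of the study's methods. At full depth a Thbd UMI was thus found in most endothelial barcodes and in 1 of 87 intermediate ones.

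Thbd in the NG2-DsRed library stood at 135 CPM (106 to 169) in endothelial barcodes and at 36.1 CPM (18.7 to 63.1) in mural barcodes, where 12 UMIs lay in 10 of 97. The log2 ratio of 1.85 (1.01 to 2.92) was a 3.74-fold difference. Among the 16 endothelial barcodes of that library with at most 1 mural gene, Thbd stood at 34.9 CPM (9.51 to 89.4) on 4 UMIs. This gives a log2 ratio to mural barcodes of 0.06, while the 32 barcodes with 3 or 4 mural genes had 166 CPM (128 to 212). The 4 UMIs set the level of the 16 barcodes only loosely. Of the 77 endothelial Thbd UMIs of this library, 64 lay in the 32 barcodes that also carry 3 or 4 mural genes. Whether those barcodes hold more than 1 cell was not tested. The 347 of 379 endothelial barcodes of the Tie2-GFP library with at most 1 mural gene had 353 CPM of Thbd.

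Procr encodes the endothelial protein C receptor, which presents protein C to thrombomodulin. It gave 557 UMIs in endothelial barcodes of the Tie2-GFP library, 162 CPM (149 to 176), in 193 of 379 barcodes (50.9%, or 23.3% at 2000 UMIs), with a median of 53.3 and a highest value of 3033 CPM. It was at 0 in all 87 intermediate barcodes, so the endothelial level was at least 71.0-fold higher (exact lower limit of the log2 ratio 5.85). Of the 4 mural barcodes of this library, 1 held 6 Procr UMIs and the others none.

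Of the 5 genes with at least 10 UMIs over the endothelial barcodes of both libraries, Procr differed most between them. In NG2-DsRed barcodes it gave 10 UMIs in 6 of 58 endothelial barcodes, 17.5 CPM (8.40 to 32.2), a level 9.26-fold below that of the Tie2-GFP library (log2 3.14, 2.32 to 4.28), where the median gene differed by a log2 ratio of -0.16. Over the same pair of libraries Thbd differed by 1.35 (1.02 to 1.71) and Vwf by 0.76 (0.40 to 1.17) on the log2 scale, both higher in the Tie2-GFP library, while Plat stood at 0.00 (-0.33 to 0.36). Reporter line, batch and software version cannot be told apart here. Mural barcodes of the NG2-DsRed library had 3 Procr UMIs (9.03 CPM), a log2 ratio of 0.80 (-1.00 to 3.46), and the 16 endothelial barcodes with at most 1 mural gene had none.

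Tfpi encodes the inhibitor of the complex of tissue factor and factor VIIa. Its level was low: 154 UMIs in endothelial barcodes of the Tie2-GFP library, 44.8 CPM (38.0 to 52.5), in 105 of 379 barcodes (27.7%, or 8.32% at 2000 UMIs). Intermediate barcodes had 15 UMIs in 12 of 87 (11.4 CPM, 6.39 to 18.8), a log2 ratio of 1.93 (1.21 to 2.85). This ratio was 0.12 when both classes were held to the limits of the study's methods, which leaves 6 intermediate barcodes. Tfpi in the NG2-DsRed library had 17 UMIs in endothelial barcodes (29.8 CPM, 17.3 to 47.7) and 16 UMIs in 16 of 97 mural barcodes (48.1 CPM, 27.5 to 78.2). The log2 ratio between them, -0.70, had an interval from -1.77 to 0.39 that holds 0. It was at 0 in the 23 intermediate barcodes of that library.

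F3 encodes tissue factor, the initiator of coagulation, and it had the reverse pattern. Of its Tie2-GFP UMIs 787 lay in intermediate barcodes, 599 CPM (558 to 642), with a UMI in 78 of 87 (89.7%, 81.3 to 95.2). The median intermediate barcode had 419 CPM and the highest 2073, so that the level was broad rather than carried by a few barcodes. Endothelial barcodes had 7 UMIs in 5 of 379 (2.04 CPM), and F3 was 294-fold higher in intermediate than in endothelial barcodes, a log2 ratio of -8.10 (-9.52 to -7.15). The same was seen in the NG2-DsRed library, where 20 of 23 intermediate barcodes had F3 at 539 CPM (451 to 639), with a median of 462 CPM over barcodes. In the intermediate barcodes within the limits of the study's methods, F3 stood at 564 CPM (433 to 722) in 6 of the Tie2-GFP library. It stood at 345 CPM (237 to 484) in the 7 of 23 within the limits in the NG2-DsRed library. Barcodes of no class held a further 141 F3 UMIs among Tie2-GFP and 7 among NG2-DsRed barcodes, so F3 was not confined to the intermediate class. The 5 markers of marginal cells, the ion-transporting epithelium of the SV, summed to 3531 CPM in intermediate barcodes of the Tie2-GFP library. In those of the NG2-DsRed library they summed to 1061 CPM. Slc12a2 made 3309 and 1053 CPM of these sums, and the part of marginal cell RNA in the F3 level was not tested. At 2000 UMIs the expected shares of intermediate barcodes with F3 were 57.6% and 53.5% in the Tie2-GFP and NG2-DsRed libraries.

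The vascular classes had almost no F3. The share of endothelial barcodes with a UMI was 1.32% in the Tie2-GFP library and 1.72% (1 of 58) in the NG2-DsRed library, near the 2.30% of intermediate barcodes that had a UMI of Vwf, and no expression is read from it. In mural barcodes 6 UMIs lay in 2 of 97 (18.1 CPM), 5 of them in 1 barcode, and the ratio of endothelial to mural level changed direction when mural barcodes with any endothelial gene were left out (log2 -2.90 against 0.51). F3 was 29.8-fold higher in intermediate than in mural barcodes of this library (log2 ratio of mural to intermediate -4.79, -6.37 to -3.74).

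Between endothelial and mural barcodes of the NG2-DsRed library, 5 of the 7 genes had at least 10 UMIs. Of these 1, Vwf, was at least 4-fold higher in endothelial barcodes, 0 were 4-fold lower, and 4 lay within 4-fold in both directions. Over the 8782 genes that passed this minimum, 6.27% were 4-fold higher and 6.19% 4-fold lower, and the median log2 ratios were 0.80 for the 5 genes and -0.17 for all. In the comparison between endothelial and intermediate barcodes of that library, 6 of the 7 had at least 10 UMIs. By the log2 ratio 5 of them were at least 4-fold higher in endothelial barcodes and 1, F3, was lower (308-fold), beside 13.7% and 6.93% of 8303 genes. Their median log2 ratio was 3.63, or 2.21 with genes at 0 set at their bound, against 0.13 over all genes. Of the 5, Plat was 11.9-fold higher (log2 3.36, 1.97 to 5.88), and the others were at 0 in intermediate barcodes, with exact lower limits of the log2 ratio of 2.81 for Vwf, 3.13 for Thbd, 0.82 for Tfpi and -0.06 for Procr. The Procr limit does not exclude an equal level. Depth sets these limits, since the 23 intermediate barcodes hold 244957 UMIs in all. With 3 counts set for the 0, Procr (1.43-fold) and Tfpi (2.43-fold) fell short of 4-fold. A gene that reached 10 UMIs only through its high class had to differ, so the counts of both comparisons describe the genes and add no support.

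**Figure D2:**
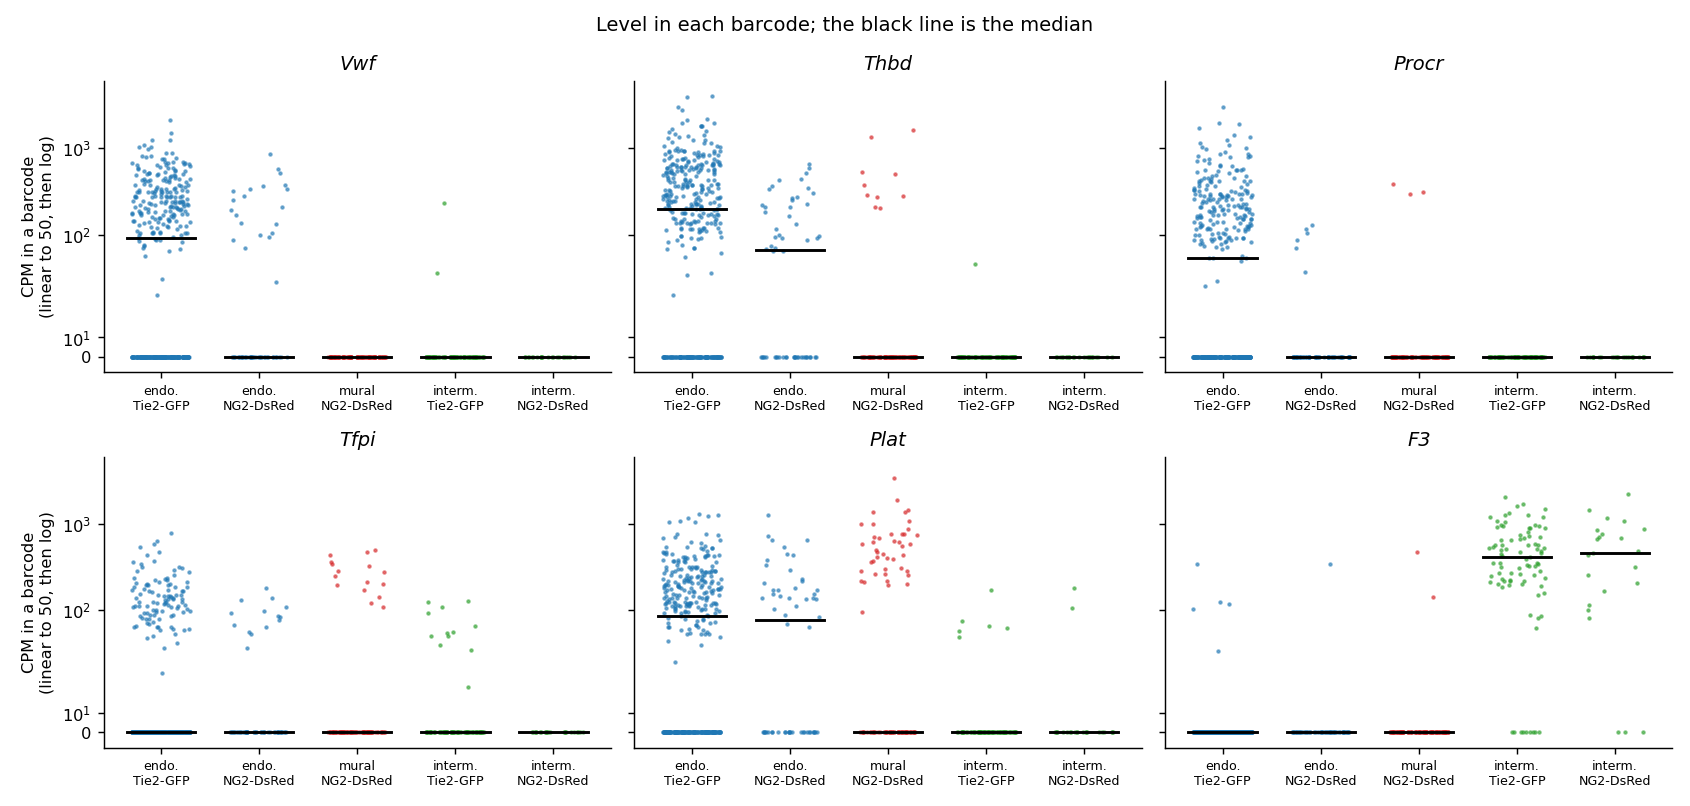
CPM of 6 genes in each barcode (points; linear up to 50 and logarithmic above) by class and library, with the median as a black line. F3 has a median of 419 and 462 CPM in the intermediate barcodes of the Tie2-GFP and NG2-DsRed libraries and 0 in the other classes, whereas the medians of Vwf, Procr and Tfpi in endothelial barcodes of the NG2-DsRed library are 0.

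Plat encodes tissue-type plasminogen activator, the main activator of plasminogen within vessels. Endothelial levels were close in the libraries, at 146 CPM (134 to 160; 502 UMIs in 217 of 379 barcodes) in Tie2-GFP and 145 CPM (116 to 180; 83 UMIs in 31 of 58) in NG2-DsRed. Of these 83 UMIs, 61 lay in the 32 barcodes with 3 or 4 mural genes (159 CPM, 121 to 204). The 16 barcodes with at most 1 mural gene had 113 CPM (60.4 to 194) on 13 UMIs. Intermediate barcodes of the Tie2-GFP library had 7 UMIs (5.33 CPM), 27.4-fold less than endothelial barcodes (log2 4.68, 3.72 to 6.10). Within the limits of the study's methods the log2 ratio was 3.45, on 1 UMI in 6 intermediate barcodes. Mural barcodes had more Plat than endothelial barcodes of the same library, with 73 UMIs in 43 of 97 (220 CPM, 172 to 276; log2 of endothelial to mural -0.60, -1.07 to -0.12). The same mural barcodes had 638 CPM of the 10 endothelial markers, of which Esam made 469 CPM, Emcn 126 CPM and Pecam1 27.1 CPM, with Flt1, Tek and Kdr at 0, and their part in the Plat level was not tested.

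Mural barcodes with and without contractile genes differed in Plat. In the 40 with a UMI of at least 2 of Acta2, Tagln and Myh11, which mark smooth muscle and contractile pericytes, the level was 108 CPM (64.9 to 168), and in the other 57 it was 346 CPM (260 to 452). A UMI was found in 30.0% (16.6 to 46.5) and 54.4% (40.7 to 67.6) of them, and the shares at 2000 UMIs were 19.2% and 46.5%, although the contractile barcodes were deeper (median 3749 against 2528 UMIs). The immediate-early and heat shock genes moved the other way, at 28716 CPM in contractile and 17983 CPM in other mural barcodes, and their part was not tested. The other genes had at most 9 UMIs in either group. Intervals of the log2 ratio of contractile to other mural barcodes held 0 for Thbd (-4.28 to 0.24), Procr (-3.44 to 6.71), Tfpi (-1.41 to 1.85) and Plau (-3.80 to 1.05). F3 had 0 UMIs in contractile and 6 in other mural barcodes (log2 of at most -0.41), of which 1 barcode held 5, and Vwf was at 0 in both.

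Plau encodes urokinase-type plasminogen activator. It was close to absent from endothelial barcodes at this depth, with 4 UMIs in 379 barcodes of the Tie2-GFP library (1.16 CPM) and 0 of 58 in the NG2-DsRed library, where the limit of 3 counts allows a UMI in up to 5.17% of barcodes (6.16% by Clopper-Pearson). Mural barcodes of the NG2-DsRed library held 9 UMIs in 8 of 97 (27.1 CPM, 12.4 to 51.4), and the log2 ratio of endothelial to mural level was at most -1.76 by its exact limit. Plau was at 0 in the intermediate barcodes of both libraries.

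Endothelial barcodes were next divided by genes of arteries (Gja4, Gja5, Bmx, Sema3g, Hey1, Efnb2) and of veins (Nr2f2, Slc38a5, Vcam1, Ackr1, Ephb4, Aplnr). A barcode was artery-marked or vein-marked with a UMI of at least 2 genes of one list and more of these than of the other. In the Tie2-GFP library 168 barcodes were artery-marked, 62 vein-marked and 149 neither.

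Vwf was higher in vein-marked barcodes of both libraries, and Procr in artery-marked ones of the Tie2-GFP library. Vwf stood at 316 CPM (274 to 362) in vein-marked, 188 CPM (163 to 216) in other and 134 CPM (118 to 153) in artery-marked barcodes, and a UMI was found in 80.6%, 52.3% and 44.6% of them, or 42.7%, 28.2% and 19.1% at 2000 UMIs. The log2 ratio of artery-marked to vein-marked barcodes was -1.23 (-1.51 to -0.95). The NG2-DsRed levels were 290 CPM (186 to 431) in 7 vein-marked and 85.0 CPM (56.5 to 123) in 30 artery-marked barcodes (log2 -1.77, -2.61 to -0.92). The 24 Vwf UMIs of those vein-marked barcodes lay in 4 of the 7, with 11 in 1 barcode. Procr stood at 199 CPM (178 to 221) in artery-marked, 134 CPM (112 to 157) in other and 114 CPM (89.5 to 143) in vein-marked barcodes of the Tie2-GFP library, a log2 ratio of 0.80 (0.44 to 1.18). Plat had a ratio of the same direction (0.54, 0.18 to 0.94), with 162 CPM in artery-marked and 111 CPM in vein-marked barcodes. Neither was shown to be higher in artery-marked barcodes of the NG2-DsRed library, where Procr stood at 24.3 CPM in artery-marked and 24.2 CPM in vein-marked barcodes, on 8 and 2 UMIs (log2 -0.23, -2.32 to 3.28), and Plat at 143 and 181 CPM (log2 -0.38, -1.21 to 0.60).

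The interval for Thbd left out 0 in the NG2-DsRed library and held it in the Tie2-GFP library, a difference between libraries that was not tested, and for Tfpi both intervals held 0. In the Tie2-GFP library Thbd had 345 CPM in artery-marked and 369 CPM in vein-marked barcodes (log2 -0.10, -0.31 to 0.13), and Tfpi had 43.8 and 44.0 CPM (log2 -0.02, -0.64 to 0.66). In the NG2-DsRed library Thbd had 100 CPM (68.9 to 141) in artery-marked and 242 CPM (148 to 373) in the 7 vein-marked barcodes (log2 -1.28, -2.11 to -0.39), and Tfpi had 27.3 and 36.2 CPM (log2 -0.55, -2.41 to 2.11). The 10 mural markers summed to 6561 and 4795 CPM in those barcodes. Artery-marked barcodes of the Tie2-GFP library also carried more of the 10 mural markers (1619 CPM) than vein-marked ones (171 CPM), and vein-marked barcodes more haemoglobin RNA (12570 CPM for the 4 erythroid genes, against 974 CPM). Few barcodes carried the haemoglobin RNA, since Hba-a1 was found in 5.54% and Hbb-bs in 5.01% of all endothelial barcodes of that library. The part of the mural markers or of the haemoglobin RNA in the Vwf and Procr levels was not tested. The level of Vwf over all endothelial barcodes was 207 CPM when those with more than 1 mural gene were left out.

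**Figure D3:**
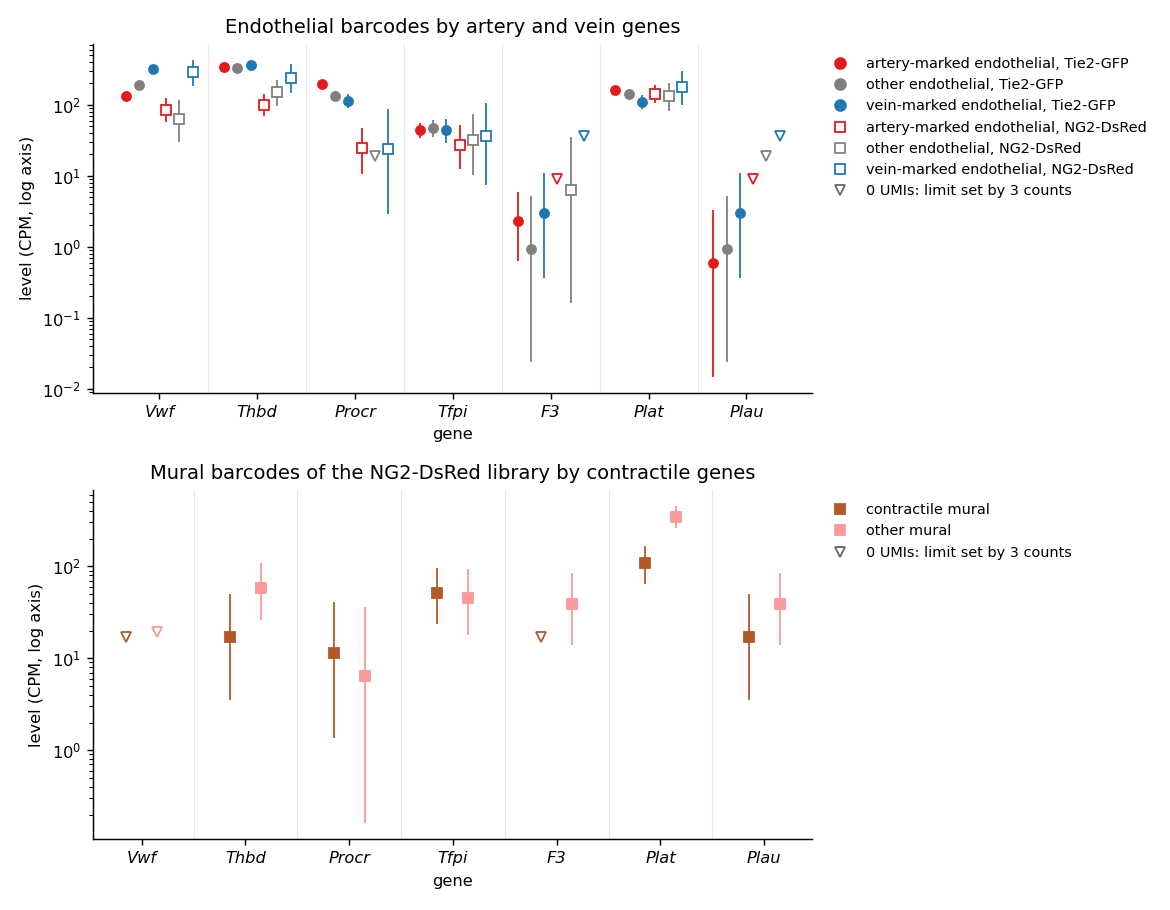
Level of each gene in CPM (log axes) in endothelial barcodes divided by artery and vein genes (upper panel, both libraries) and in mural barcodes of the NG2-DsRed library divided by contractile genes (lower panel), with 95% Poisson intervals and triangles for 0 UMIs at the limit set by 3 counts. In the Tie2-GFP library Vwf runs from 134 CPM in artery-marked to 316 CPM in vein-marked barcodes, and Plat in mural barcodes from 108 CPM with contractile genes to 346 CPM without.

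Co-detection with Vwf was examined in endothelial barcodes. Among Tie2-GFP barcodes Thbd was found in 69.0% (62.1 to 75.3) of the 203 Vwf-positive and 66.5% (59.0 to 73.4) of the 176 Vwf-negative barcodes. Procr was found in 52.2% and 49.4%, Plat in 60.6% and 53.4%, and Tfpi in 33.0% (26.6 to 39.9) and 21.6% (15.8 to 28.4). F3 occurred in 2 Vwf-positive and 3 Vwf-negative barcodes and Plau in 3 and 1. Every one of the 4 detected genes was thus found somewhat more often with Vwf than without it, but Vwf-positive barcodes were also deeper, with a median of 8936 UMIs against 6504.

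At equal depth 3 of these 4 differences turned. Those of Thbd and Procr, 2.49 and 2.78 points at full depth, were then larger in size in the other direction. With every barcode thinned to 2000 UMIs, the share with the other gene in Vwf-positive minus Vwf-negative barcodes was -5.58 percentage points for Thbd, -4.47 for Procr, -3.17 for Plat and 1.16 for Tfpi. Vwf was read at that depth too, so fewer barcodes counted as Vwf-positive (26.5% expected, against 53.6% at full depth). In the NG2-DsRed library, with 21 Vwf-positive barcodes of median 13543 UMIs and 37 Vwf-negative ones of 7109, the unthinned differences were larger, at 28.2 points for Thbd, 21.1 for Procr, 29.3 for Tfpi and 35.6 for Plat. They fell to 4.83, 1.86, 2.54 and 7.05 points at 2000 UMIs. These differences at full depth thus shrank or turned at equal depth. All shares are lower at 2000 UMIs by construction, so a fall in points was partly fixed in advance and does not show its source. In the NG2-DsRed library the 4 shares at 2000 UMIs were still higher with Vwf than without it. They were 24.1% and 19.3% for Thbd, 3.41% and 1.55% for Procr, 6.54% and 4.00% for Tfpi, and 27.8% and 20.8% for Plat. The number of Vwf, Thbd, Procr, Tfpi and Plat found in a barcode went with its depth too, from a median of 4546 UMIs in the 17 endothelial barcodes of the Tie2-GFP library with none to 15724 UMIs in the 23 with all 5.

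**Figure D4:**
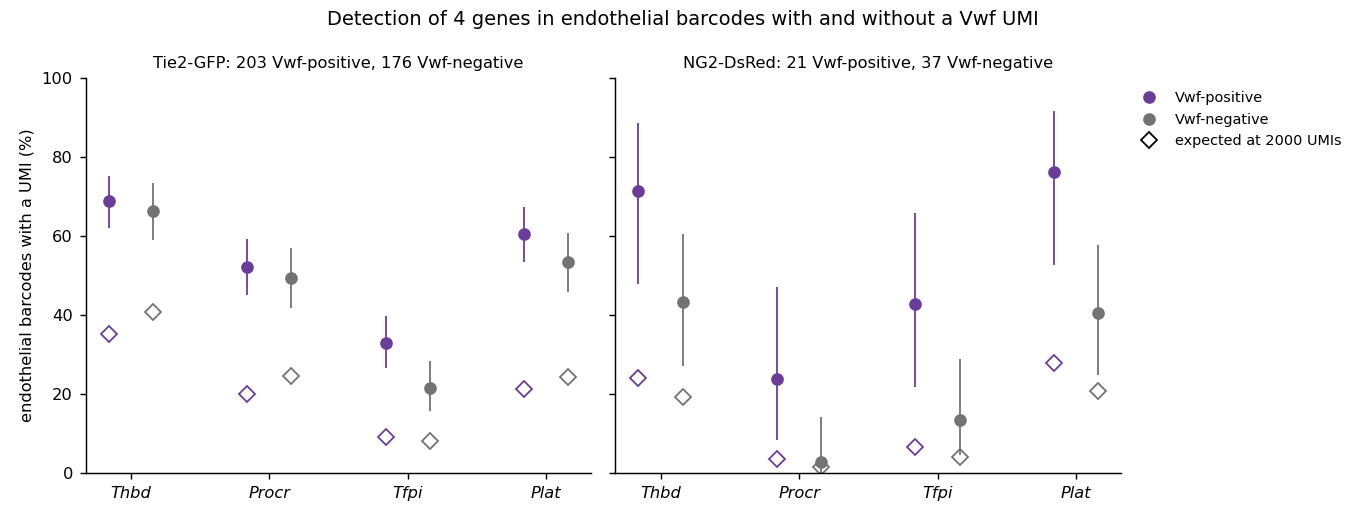
Share of endothelial barcodes with a UMI of Thbd, Procr, Tfpi or Plat among barcodes with and without a UMI of Vwf, with 95% Clopper-Pearson intervals (circles), and the expected share when each barcode is thinned to 2000 UMIs (diamonds). For the diamonds Vwf is read at 2000 UMIs too. In the Tie2-GFP library Thbd goes from 69.0% and 66.5% in Vwf-positive and Vwf-negative barcodes to 35.3% and 40.9% at equal depth.

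By level in CPM, Procr and Thbd were lower in Vwf-positive than in Vwf-negative barcodes of the Tie2-GFP library. No share over all genes was taken for this split, so how common such differences are is not known. Procr stood at 128 CPM with Vwf and 217 CPM without it (log2 -0.75, -1.00 to -0.51), and Thbd at 307 and 407 CPM (log2 -0.41, -0.57 to -0.24). Over single barcodes the relation to Vwf was close to none. Pearson r was -0.05 for Procr and -0.06 for Thbd in 362 thinned barcodes, and -0.08 for each without thinning. The tenth of endothelial barcodes with the most Procr UMIs held 52.2% of them. Plat (145 and 148 CPM) and Tfpi (47.2 and 41.0 CPM) had intervals of the log2 ratio that hold 0 (-0.30 to 0.23 and -0.29 to 0.71). The Vwf-positive barcodes had less of the artery genes (384 against 601 CPM) and more of the vein genes (263 against 167 CPM).

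Within artery-marked barcodes alone Procr was again lower with Vwf (151 against 250 CPM, log2 -0.72, -1.05 to -0.41), as it was among barcodes of neither mark (103 against 182 CPM, log2 -0.82, -1.31 to -0.32). In vein-marked barcodes the direction was the other (122 against 58.4 CPM) on 5 UMIs in 12 Vwf-negative barcodes, with an interval of log2 -0.23 to 2.73. The NG2-DsRed library did not share the pattern: Procr had 9 UMIs in Vwf-positive and 1 UMI in Vwf-negative barcodes (log2 2.76, 0.41 to 8.72) and Thbd had 163 and 109 CPM (log2 0.58, -0.10 to 1.29). In artery-marked barcodes of that library Thbd was higher with Vwf (log2 1.21, 0.13 to 2.49), while its intervals in vein-marked and other barcodes held 0. The artery-marked ratio rests on 23 UMIs in 12 Vwf-positive and 10 UMIs in 18 Vwf-negative barcodes. Of these 33 UMIs 10 lay in 1 barcode, a spread between barcodes that the interval does not cover. Plat in the Tie2-GFP library was higher with Vwf in artery-marked barcodes (log2 0.44, 0.09 to 0.80), on 165 UMIs in 75 and 113 UMIs in 93 barcodes. The tenth of artery-marked barcodes with the most Plat UMIs held 46.4% of them. Plat was lower with Vwf among barcodes of neither mark (log2 -0.60, -1.08 to -0.12), on 78 UMIs in 78 and 73 UMIs in 71 barcodes. In vein-marked ones its interval held 0 (-0.93 to 1.28). Over single endothelial barcodes of that library Pearson r of Vwf with Plat was -0.03 thinned and -0.07 without thinning.

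Genes whose thinned counts followed each of the 5 detected genes most closely over 362 endothelial barcodes were sought among 7173 genes. For Vwf they were Mpp1 (Pearson r of 0.29), Gosr2 (0.27), Depdc5 (0.24), Fn1 (0.23) and Ctla2a (0.20). Over 58 barcodes of the NG2-DsRed library only Fn1, the gene of fibronectin, had an r above 0 (0.54). After thinning, a Vwf UMI was expected in only 14.7% of those 58 barcodes. Before thinning, 1 of them held 11 of the 62 Vwf UMIs. How far a few barcodes set this r was not tested, and it has no interval here. For Thbd the closest genes over the 362 barcodes were Ugdh (0.27), Ppp1r2 (0.23) and Arid5b (0.21), and for Procr they included Slc6a6 (0.23) and Rrp7a (0.22). For Tfpi they were Rasl11a (0.28), Med7 (0.25) and Wdr11 (0.24), and for Plat Spata2 (0.31), Lrrc57 (0.22) and Cisd1 (0.22). All are weak correlations in sparse counts of barcodes from 1 library, the highest of many, and are given as descriptions. Without thinning the same pairs had r between 0.02 and 0.36, at ranks from 2 (Slc6a6) to 3214 (Depdc5) among the 7173 genes. Of all 17 pairs, 10 moved beyond the interval of the thinned r. In the NG2-DsRed library r was -0.065, -0.046 and -0.058 for the 3 genes named with Thbd, in that order. It was 0.16 and -0.036 for those with Procr, 0.083, -0.044 and 0.24 with Tfpi, and -0.074, 0.034 and 0.041 with Plat.

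Of a wider list of 44 genes of the pathway, 15 reached 50 CPM in a class of at least 10 barcodes, 2 more (F2r and Serpinc1) did so only through 1 UMI in the 4 mural barcodes of the Tie2-GFP library, and 20 had no UMI in any of the 3 classes. The 20 included 10 of the 13 clotting factors, with the fibrinogen genes Fga, Fgb and Fgg, and Plg, the plasminogen gene, most of which are made in the liver. Also at 0 were Proc, the gene of protein C itself, and Selp, the P-selectin of endothelial granules. F8, the factor VIII gene, which endothelial cells are known to make, had 28 UMIs (8.15 CPM) in endothelial barcodes of the Tie2-GFP library and 1 in intermediate barcodes. F8 in the NG2-DsRed library had 0 UMIs in 58 endothelial and 1 UMI in mural barcodes, and it is named here after its values were seen.

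Plaur, the urokinase receptor, stood at 58.5 CPM in endothelial barcodes of the Tie2-GFP library and at 43.8 CPM in those of the NG2-DsRed library, and was at 0 in mural and intermediate barcodes, while its ligand gene Plau stood at 27.1 CPM in the mural barcodes. Serpine2, the thrombin inhibitor protease nexin 1, was 4.35-fold higher in mural than in endothelial barcodes (457 against 105 CPM; log2 of endothelial to mural -2.11, -2.58 to -1.68). Anxa2 and S100a10, which together form a cell surface receptor for plasminogen and Plat, stood at 427 and 290 CPM in endothelial and at 38.8 and 103 CPM in intermediate barcodes of the Tie2-GFP library, and Plgrkt, another plasminogen receptor, at 48.9 and 25.1 CPM. S100a10 in the NG2-DsRed library was 6.70-fold higher in endothelial than in mural barcodes (403 against 60.2 CPM).

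Entpd1 and Ptgis, genes of brakes on platelets, were higher in endothelial barcodes. Entpd1, the ectonucleotidase CD39, had 425 CPM in endothelial and 0 in intermediate barcodes of the Tie2-GFP library (at least 186-fold higher) and 282 CPM in endothelial against 27.1 CPM in mural barcodes of the NG2-DsRed library (10.4-fold). Ptgis, the prostacyclin synthase, had 123 CPM in endothelial and 0 in intermediate barcodes (at least 54.0-fold), and 96.3 CPM against 0 in mural barcodes (at least 10.7-fold). Pros1, the gene of the protein C cofactor protein S, was read in every class, at 73.7 and 22.1 CPM in endothelial and intermediate barcodes of the Tie2-GFP library and at 61.3 and 111 CPM in endothelial and mural barcodes of the NG2-DsRed library.

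Granule and processing genes differed in direction. Cd63, a membrane protein of Weibel-Palade bodies and of melanosomes and other lysosome-related organelles, was 43.3-fold higher in intermediate (1742 CPM) than in endothelial barcodes (40.2 CPM) in the Tie2-GFP library. Angpt2, another granule cargo, had 29.7 CPM in endothelial and 0 in intermediate barcodes of that library (exact lower limit of the log2 ratio 3.38). Its NG2-DsRed level was 7.01 CPM in endothelial barcodes, on 4 UMIs, and 84.2 CPM in mural barcodes (log2 of endothelial to mural -3.44, -5.56 to -2.07). Ggcx, the carboxylase of vitamin K-dependent factors, was 7.69-fold higher in intermediate barcodes of the Tie2-GFP library (78.4 against 10.2 CPM). Its partner Vkorc1 (54.5 and 46.4 CPM in endothelial and intermediate barcodes) and the factor V and VIII cargo receptor genes Lman1 (104 and 108 CPM) and Mcfd2 (36.1 and 28.9 CPM) had log2 ratios whose intervals hold 0.

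**Figure D5:**
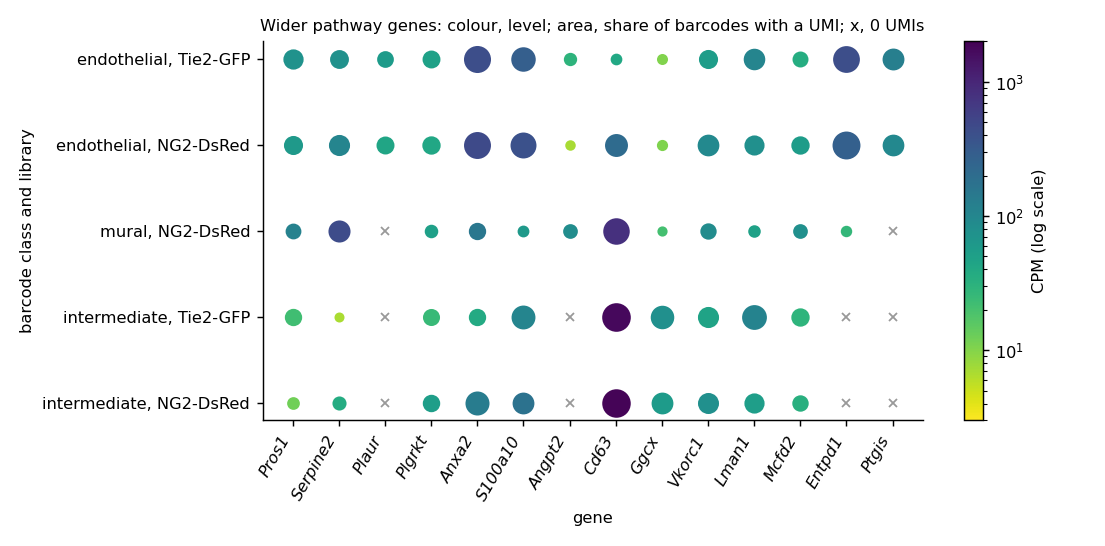
The plot shows 14 of the genes of the wider list that reached 50 CPM in a class of at least 10 barcodes, by class and library. Colour gives the level in CPM (log scale), area the share of barcodes with a UMI, and a cross 0 UMIs. Entpd1 and Ptgis have crosses in intermediate barcodes of both libraries, and Cd63 is highest there, at 1742 and 1857 CPM.

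Over this list, 18 of the 44 genes had at least 10 UMIs in the comparison of endothelial and intermediate barcodes of the Tie2-GFP library, of which 9 were at least 4-fold higher and 3 lower in endothelial barcodes, beside the 15.8% and 9.37% of all genes. Their median log2 ratio was 2.29, or 2.15 with genes at 0 set at their bound, against 0.14 for all genes. In the comparison of endothelial and mural barcodes of the NG2-DsRed library 16 genes had that many, with 4 higher (Plaur, S100a10, Entpd1, Ptgis) and 2 lower (Serpine2, Angpt2), beside 6.27% and 6.19% of all genes, and a median of -0.39 against -0.17. Here too a gene that reached the minimum only through its high class had to differ, and these counts add no support.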

How the data were processed

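Single cells of the SV were measured in 1 library per reporter line, made with droplet 3′ sequencing. The values deposited by the authors are raw counts of UMIs, 1 for each gene in each barcode, with no normalization. The matrix headers name software version 7.0.0 for the Tie2-GFP and 3.0.0 for the NG2-DsRed library, and the submitters' processing notes name bcl2fastq 2.20.0.422 and build mm10. Whether intronic reads were counted is not given in the sources used here, and a difference between the versions would move levels between libraries. The libraries hold 5432289 and 1232599 UMIs, with medians of 6956 and 4322 per barcode.

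The 7 genes, the marker lists and the wider list were chosen with earlier results of these data known. All deposited barcodes that met a class rule were used, without a doublet caller. UMIs were summed per class and divided by all UMIs of its barcodes to give CPM. Ratios add 0.5 counts to each class, and a bound against 0 uses 3 counts. Background shares count genes past 4-fold among those with at least 10 UMIs over both classes. Shares at equal depth are exact expectations at 2000 UMIs per barcode, which leaves out 17 endothelial and 2 intermediate barcodes of the Tie2-GFP and 0 endothelial, 19 mural and 1 intermediate of the NG2-DsRed library. Named genes are the 7, the genes of the wider list at 50 CPM or more in any class or at 0, and the 5 (Vwf) or 3 (other genes) of highest Pearson r among genes found in at least 10% of endothelial barcodes, and 2 genes that this rule names are not reported here. Alternatives were the limits of the study's methods (200 to 6000 genes and 200 to 30000 UMIs for Tie2-GFP, up to 5000 genes and 20000 UMIs for NG2-DsRed, at most 5% mitochondrial and 40% ribosomal UMIs), stricter class rules, equal weight of barcodes, the shared genes as the total, and thinning. The levels within artery, vein and neither mark by Vwf, the artery to vein ratios of the NG2-DsRed library and the ratios between mural subsets were added after seeing the data. Python 3.11.15, numpy 2.4.6, scipy 1.17.1, pandas 2.3.3 and matplotlib 3.10.9 were used, and the steps were tested on simulated counts.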

Additional observations from a re-analysis of the deposited data

Results flagged for a closer look

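Barcodes of no class, which no comparison used, held UMIs of 3 of the 7 genes above the limit of 3 counts. F3 gave 141 UMIs in 35 of 163 such barcodes of the Tie2-GFP library (210 CPM) and 7 UMIs in 3 of 21 of the NG2-DsRed library. Vwf gave 8 UMIs in the Tie2-GFP library. Plat gave 6 UMIs in the Tie2-GFP and 8 UMIs in the NG2-DsRed library.

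The F3 barcodes of the Tie2-GFP library were looked at further after their counts were seen. The 35 with F3 had a median of 11837 UMIs and 15.1% mitochondrial UMIs, and the 128 without it 1277.5 UMIs and 83.2%. The 5 markers of marginal cells, the ion-transporting epithelium of the SV, summed to 11279 CPM with F3 and 2427 CPM without it, and the 6 intermediate markers to 1037 and 1043 CPM. Of the 35 with F3, 9 lay among 20 barcodes with 2 of the 3 intermediate genes Dct, Tyr and Kcnj10 (3994 CPM of intermediate and 6418 CPM of marginal markers) and 14 among 55 with 1 of them (596 and 7422 CPM). In the 88 barcodes with none of them, F3 stood at 221 CPM on 57 UMIs in 12 barcodes, beside 9615 CPM of marginal and 38.8 CPM of intermediate markers. Which cells these barcodes hold was not tested.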

How the results depend on the processing

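Of 244 values under alternatives, 208 stayed within their counting interval (for shares of genes, within 1.5 times), 34 moved beyond it and 2 reversed from an interval that left out 0. In all 8 values changed sign, including ones whose first interval held 0, among them the co-detection differences of Vwf with Thbd (-5.58 points) and Procr (-4.47 points) at 2000 UMIs. Vwf in endothelial barcodes of the Tie2-GFP library was 207 CPM with at most 1 mural gene per barcode. At 2000 UMIs the shares of endothelial barcodes with a UMI were 26.5% for Vwf, 39.4% for Thbd, 23.3% for Procr, 8.32% for Tfpi, 23.5% for Plat, 0.401% for F3 and 0.167% for Plau, and the Vwf co-detection differences were 1.16 points for Tfpi and -3.17 for Plat. Fewer UMIs per barcode give these lower shares by construction. Within the limits of the study's methods the log2 ratio of endothelial to intermediate barcodes was 6.29 for Thbd, 5.16 for Procr, 0.12 for Tfpi and 3.45 for Plat, on 6 intermediate barcodes. Those 6 held 0 UMIs of Thbd and of Procr, 4 of Tfpi and 1 of Plat. The Thbd and Procr values thus rest on the 0.5 added counts. With at most 1 mural gene in endothelial barcodes of the NG2-DsRed library, the co-detection difference of Vwf and Tfpi reversed to -9.09 points, on 16 barcodes. The log2 ratio of endothelial to mural barcodes was then 0.06 for Thbd, on 4 endothelial UMIs, and -1.27 for Procr, on 0. For F3 that ratio was -0.21 with equal weight of barcodes and reversed to 0.51 without endothelial genes in mural barcodes, on at most 6 UMIs. With a minimum of 1 UMI the share of genes 4-fold lower was 13.2% (endothelial to mural) and 11.4% (endothelial to intermediate) in that library. No paired analysis was possible because each line has 1 library and no test was made. Few UMIs limit the ratios of Plau, and those of Procr and Tfpi in the NG2-DsRed library. The endothelial level of Plau in the Tie2-GFP library had a narrow interval (1.16 CPM, 0.317 to 2.98).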
